A study of Mus musculus with 12 samples.

Results

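The matrix metalloproteinases and their inhibitors were followed in cultured mouse macrophages whose donors ate a normal diet (ND) or one high in fat (HFD). A list of 10 genes was named for this set, and rows with those names were taken from a table of 13232 genes: *Mmp8*, *Mmp9*, *Mmp12*, *Mmp13*, *Mmp14*, *Mmp19*, *Adam8* and *Timp2* were found, 8 of the 10. *Timp1* and *Timp3* were not analysed here. The set was selected on the difference between HFD and ND means in these 6 libraries: *Mmp8* was among the strongest differences between the diets there, and the other genes are its relatives. The diet differences below are therefore a description, and they support no statement about the set as a whole.

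The cells were bone marrow-derived macrophages, grown from the marrow of wild-type C57B6/J mice with M-CSF (20 ng/ml), the growth factor that drives marrow precursors to become macrophages. Both groups had the same culture, with serum-free medium from day 4 and 1 h at 1% oxygen on day 7, and the labels tell them apart by the diet of the donor mice. The table holds 3 ND and 3 HFD libraries, all kept under hypoxia; the normal-oxygen libraries of the study were not analysed here, so nothing below describes a response to oxygen. The labels do not say whether the replicates of a diet came from separate mice, and p-values measure only the spread between these libraries. Ages, sex and the length of feeding are not given in the sources used here.

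Matrix metalloproteinases are zinc enzymes that are made as inactive precursors and cut proteins of the extracellular matrix, along with chemokines and other secreted proteins. TIMPs are small secreted proteins that bind the active enzymes and block them. In macrophages the enzymes are known for matrix turnover, migration through tissue and, for the macrophage elastase MMP12, the breakdown of elastin.

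*Mmp8*, *Mmp12* and *Mmp13* share a position as well as a family. They lie on the plus strand of chromosome 9 within 296 kb (RefSeq, GRCm38.p6, the assembly called mm10 in the submitters' processing notes): *Mmp13* at chr9:7272514-7283333, *Mmp12* at chr9:7344397-7360461 and *Mmp8* at chr9:7558429-7568486. Of 10 *Mmp* genes in this cluster, the table lists these 3 and *Mmp27*, which starts 2909 bases beyond the end of *Mmp8*. The other members lie apart, *Mmp9* at chr2:164940326-164955850, *Mmp19* at chr10:128790910-128800827 and *Mmp14* at chr14:54431598-54442456 on plus strands, and *Adam8* at chr7:139978932-139995207 and *Timp2* at chr11:118301061-118355411 on minus strands. The promoter windows of the 3 clustered members are shown because these genes had higher means in HFD together while differing in a sequence element classically tied to this family, the AP-1 site. Each window runs from 250 bases before to 50 bases after a RefSeq start, plus strand, 5′ to 3′. Capitals mark AP-1 matches (TGANTCA, the same on both strands) and TATA matches (TATAAA, given strand only).
*Mmp8*, chr9:7558179-7558478: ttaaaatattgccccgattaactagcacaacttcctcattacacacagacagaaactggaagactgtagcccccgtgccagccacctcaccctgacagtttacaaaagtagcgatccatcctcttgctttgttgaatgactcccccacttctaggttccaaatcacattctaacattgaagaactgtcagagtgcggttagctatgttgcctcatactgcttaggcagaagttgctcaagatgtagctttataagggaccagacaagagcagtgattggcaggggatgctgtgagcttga
*Mmp13*, chr9:7272264-7272563: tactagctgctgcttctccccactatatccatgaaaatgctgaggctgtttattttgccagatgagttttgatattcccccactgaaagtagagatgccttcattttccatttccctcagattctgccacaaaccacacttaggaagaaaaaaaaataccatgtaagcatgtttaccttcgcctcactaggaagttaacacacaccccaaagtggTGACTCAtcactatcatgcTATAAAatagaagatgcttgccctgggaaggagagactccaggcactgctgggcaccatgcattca
*Mmp12*, the downstream of 2 listed starts, chr9:7347124-7347423: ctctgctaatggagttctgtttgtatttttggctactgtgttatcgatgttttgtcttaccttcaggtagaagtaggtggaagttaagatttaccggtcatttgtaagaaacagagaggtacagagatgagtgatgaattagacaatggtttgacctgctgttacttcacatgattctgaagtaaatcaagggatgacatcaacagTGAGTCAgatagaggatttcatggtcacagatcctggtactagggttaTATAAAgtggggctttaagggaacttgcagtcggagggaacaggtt
The *Mmp13* window has TGACTCA beginning 35 bases before the start and the downstream *Mmp12* window has TGAGTCA beginning 44 bases before it. The TATA match begins 16 bases before the *Mmp13* start and 4 bases after the downstream *Mmp12* start. No AP-1 or TATA match was found in the *Mmp8* window, in the upstream *Mmp12* window, or in those of *Mmp14*, *Adam8* and *Timp2*. The *Adam8* window, chr7:139992513-139992812, lies inside the gene span given above, so it describes an internal listed start. Windows were matched for 6 of the 8 members, 7 windows in all, with none for *Mmp9* and *Mmp19*. Over all 32851 windows in the RefSeq table, 7.81% hold the AP-1 letters and 8.32% the TATA letters. Hypoxia response element cores (ACGTG or GCGTG, both strands) were found in the *Mmp14* and *Timp2* windows and in none of the other 5, against 43.8% of all windows. ETS letters (AGGAAG, both strands) were found in the *Mmp8*, *Mmp13*, *Mmp14* and upstream *Mmp12* windows, against 35.4% of all windows. A match of letters is a description of the sequence and not evidence of binding.

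Values are normalized reads, estimated reads per gene scaled between libraries, as the authors deposited them. Estimated depth was about 19045000 to 24491900 reads per library. All 10 macrophage markers on a list (among them *Adgre1*, *Csf1r* and *Cd68*) were listed, with a summed level of 370684 to 423209 in ND and 369345 to 428438 in HFD. Most of that sum was *Lyz2* (means of 244444 and 242339). Of the 10 markers, 3 did not overlap between the diets: *Adgre1* (25890 to 28364 in ND, 29047 to 32633 in HFD) and *Msr1* (4083 to 5142 in ND, 5247 to 6370 in HFD) were higher in each HFD library and *Cd14* was lower (3969 to 4019 in ND, 2981 to 3678 in HFD). Of all genes in the table, 7.44% had every HFD library above every ND library and 7.07% had every one below. Over 10794 genes the libraries did not separate by diet on the first principal component, where ND replicate 3 (3.43) lay beyond HFD replicate 1 (1.33) towards the other HFD libraries (11.3 and 11.4) and away from the other ND libraries (-14.0 and -13.5). Results are therefore also given without ND replicate 3.

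All 6 metalloproteinases had higher means in HFD, by 1.63 to 2.76 times, *Adam8* was 1.24 times higher, and *Timp2*, the inhibitor analysed here, had a ratio of 0.977. The HFD libraries lay above every ND library for 5 of the 8 genes, *Mmp8*, *Mmp9*, *Mmp12*, *Mmp13* and *Mmp19*, where 7.44% of all genes did so, and for 0 of 8 members they lay below, against 7.07%. By limma, with p-values adjusted by Benjamini-Hochberg over 13232 genes, 0 of 8 members and 0% of all genes had an adjusted p under 0.05, and adjusted p-values ran from 0.113 for *Mmp8* to 0.915 for *Timp2*. At an unadjusted p under 0.05 there were 7 of 8 members, against 10.6% of all genes. The median log2 difference (HFD minus ND, on log2(value + 1)) was 0.82 over the 8 members and -0.0034 over all genes. Because this contrast chose the set, nothing is read from these counts. In RNA from a whole culture, more cells of a type and more RNA per cell cannot be told apart.

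**Figure D1:**
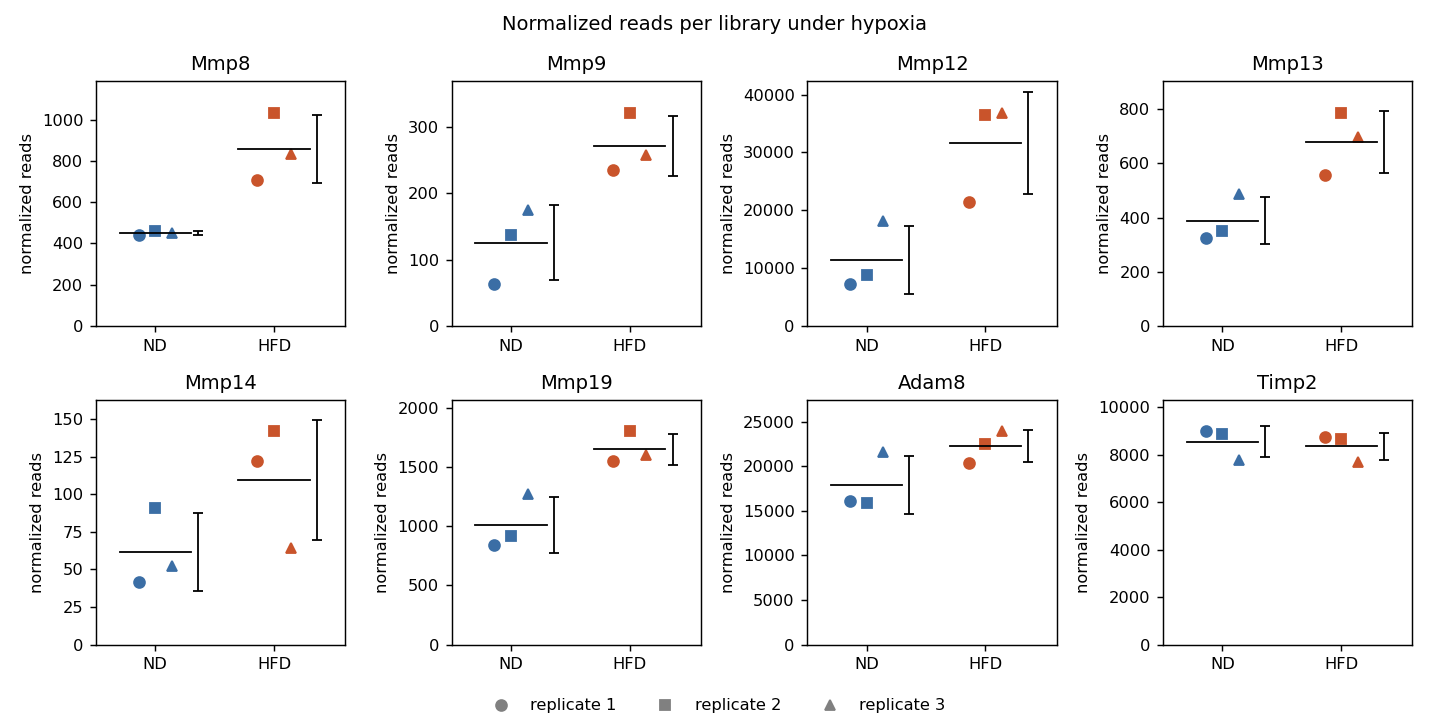
Normalized reads (linear axis from 0) of the 8 members in each library, ND in blue and HFD in orange, with marker shapes for the replicate number, a line at the mean and a bar of 1 SD (n = 3 libraries). For *Mmp8*, *Mmp9*, *Mmp12*, *Mmp13* and *Mmp19* the lowest HFD point is above the highest ND point, while *Mmp14*, *Adam8* and *Timp2* overlap.

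*Mmp8* encodes neutrophil collagenase, which cuts fibrillar collagens and is stored in neutrophil granules. In replicates 1 to 3 its normalized reads were 443, 463 and 452 with ND and 707, 1032 and 834 with HFD. The ND libraries were nearly level, with the highest 1.04 times the lowest, while the HFD libraries spread over 1.46 times. The lowest HFD library was 1.53 times the highest ND library, the widest gap between the diets among the 8 members. The means were 453 ± 9.74 and 857 ± 164 (SD, n = 3 libraries each), with a log2 difference of 0.90 (SE 0.12). Among the 5 genes without overlap, *Mmp8* alone was a gene for which ND replicate 3 stayed at the level of the other ND libraries, at 0.999 times their mean.

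*Mmp13* encodes collagenase-3, the other collagenase in the set. Its normalized reads were 326, 351 and 488 in ND and 557, 786 and 696 in HFD, replicates 1 to 3. The diets did not overlap, but the gap was narrow, with HFD replicate 1 at 1.14 times ND replicate 3. Its log2 difference was 0.81 (SE 0.16), and 0.99 without ND replicate 3.

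*Mmp12* encodes macrophage elastase and had the widest difference of the set. In replicates 1 to 3 its normalized reads were 7264, 8895 and 18134 with ND and 21370, 36455 and 36815 with HFD. ND replicate 3 stood at 2.24 times the mean of the other ND libraries and HFD replicate 1 below the other HFD libraries, so that these 2 libraries lay close together in the middle, HFD replicate 1 at 1.18 times ND replicate 3. The means were 11431 ± 5862 and 31547 ± 8815 (SD, n = 3 libraries each), a ratio of 2.76 that became 3.90 without ND replicate 3. The log2 difference was 1.54 (SE 0.31), rank 13 among the 13232 genes ordered from the highest difference. The spread within each diet was also large, 2.50 times between ND libraries and 1.72 times between HFD libraries. In GENCODE M21 the *Mmp12* model runs 1261 bases into *Mmp1b* on the opposite strand; *Mmp1b* is not listed in the table, and whether counting used strand is not given in the sources used here.

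*Mmp9* encodes gelatinase B, which cuts denatured collagen and type IV collagen. Its normalized reads were 63.9, 137 and 175 in ND and 234, 320 and 258 in HFD, replicates 1 to 3. The groups did not overlap, and the ND libraries spread over 2.74 times, more than the 1.37 times of the HFD libraries. The log2 difference was 1.21 (SE 0.31). It was 0.79 when ND replicate 1 was left out and 1.51 when ND replicate 3 was. The lowest library held an estimated 64.0 reads of this gene, for which counting error alone is 12.5% of the value.

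*Mmp19*, an enzyme of basement membrane proteins, had 838, 918 and 1277 normalized reads in ND and 1554, 1801 and 1598 in HFD, replicates 1 to 3. The 3 HFD libraries lay within 1.16 times of each other and all above ND replicate 3, the highest ND library. Its log2 difference was 0.73 (SE 0.14), and 0.91 without ND replicate 3.

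*Mmp14* encodes MT1-MMP, an enzyme anchored in the cell membrane that activates pro-MMP2. It was the lowest member, with 41.9, 90.9 and 52.0 normalized reads in ND and 122, 142 and 64.5 in HFD, replicates 1 to 3. The diets overlapped, since HFD replicate 3 lay below ND replicate 2. Its log2 difference was 0.82 (SE 0.34), from 0.59 without ND replicate 1 to 1.16 without HFD replicate 3. An estimated 42.0 to 147 reads stood behind each value, and the counting error at the lowest was 15.4%.

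*Adam8*, a membrane metalloproteinase of the related ADAM family found on myeloid cells, had 16126, 15872 and 21639 normalized reads in ND and 20378, 22498 and 23894 in HFD, replicates 1 to 3. ND replicate 3 lay above HFD replicate 1, so the diets overlapped. Its log2 difference was 0.33 (SE 0.12), and 0.47 without ND replicate 3.

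*Timp2* encodes an inhibitor of most metalloproteinases that also takes part in activation of pro-MMP2 with MT1-MMP. Its normalized reads were 8971, 8876 and 7792 in ND and 8728, 8640 and 7694 in HFD, replicates 1 to 3. The lowest library of each diet was replicate 3, and the diets overlapped over nearly their whole range. The log2 difference was -0.032 (SE 0.079), and its sign turned without ND replicate 1 (0.0042) or HFD replicate 3 (0.026).

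**Figure D2:**
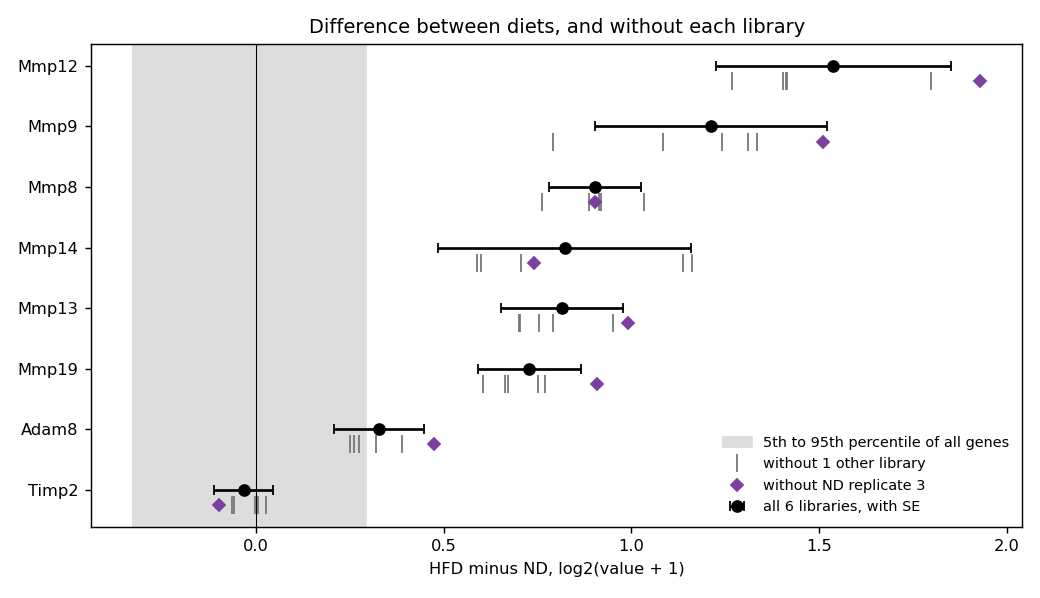
Log2 difference between diets (HFD minus ND, horizontal axis) for each member, as a black point with its limma SE for all 6 libraries, with grey ticks for fits without 1 other library and a purple diamond for the fit without ND replicate 3. The grey band spans the 5th to 95th percentile of all 13232 genes, from -0.33 to 0.29; the 6 metalloproteinases lie to its right in every fit shown, *Adam8* is at its edge and *Timp2* inside.

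Leaving out ND replicate 3 moved the differences of *Mmp12*, *Mmp9*, *Mmp13*, *Mmp19* and *Adam8* up, moved those of *Mmp14* (0.74) and *Timp2* (-0.098) down, and left *Mmp8* at 0.90. In that fit 6 of 8 members passed an adjusted p of 0.05, all but *Mmp14* and *Timp2*, against 1.76% of all genes. Without ND replicate 1, HFD replicate 2 or HFD replicate 3, 0 of 8 members passed, against 0% of all genes, and 0 of 8 passed without ND replicate 2, against 0.00756%. Limma array weights were 1.91, 0.891 and 0.441 for ND replicates 1 to 3 and 0.778, 3.09 and 0.556 for HFD replicates 1 to 3, so that this fit rested most on HFD replicate 2 and ND replicate 1. With them 7 members passed, all but *Timp2*, against 8.56% of all genes. Without HFD replicate 1, *Mmp8* alone passed (1 of 8, against 0.0151% of all genes). Without ND replicate 3 and HFD replicate 1 together, an alternative chosen after seeing the data, the members that passed without ND replicate 3 again passed (6 of 8, against 4.46%), and the difference of *Mmp12* was 2.19 (SE 0.097).

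Levels of different genes were compared per length, as normalized reads per kb of annotated exon (GENCODE M21). In the mean over the 6 libraries *Adam8* was highest at 4327 ± 723, followed by *Mmp12* at 2969 ± 1781 and *Timp2* at 2169 ± 144 (SD, n = 6 libraries). *Mmp19* (377 ± 110), *Mmp8* (270 ± 101) and *Mmp13* (199.8 ± 68.9) formed a middle tier, and *Mmp9* (55.9 ± 25.9) and *Mmp14* (14.4 ± 6.72) were lowest. Among all genes matched by symbol these levels ran from the 98.5th percentile for *Adam8* and 97.6th for *Mmp12* to the 28.6th for *Mmp9* and 5.45th for *Mmp14*. Ranges over libraries did not overlap between *Timp2* and *Mmp19* or between *Mmp13* and *Mmp9*, and every other pair of neighbours in this order overlapped. The order from *Mmp19* down to *Mmp14* was the same in each of the 6 libraries.

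**Figure D3:**
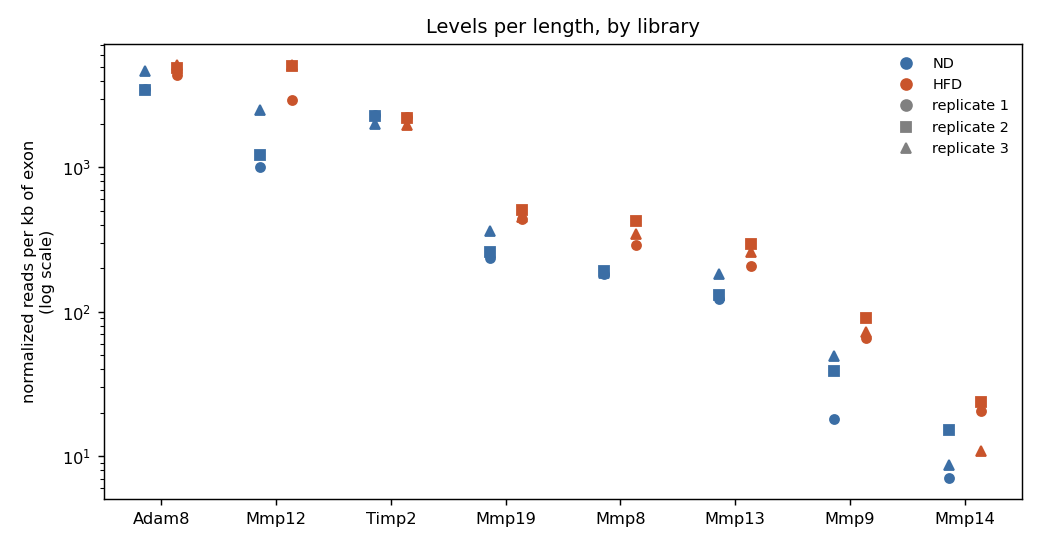
Normalized reads per kb of exon (log axis) for each member in order of its mean, with ND libraries in blue to the left, HFD libraries in orange to the right and marker shapes for the replicate number. *Mmp12* is the gene that changes place: it lies below *Timp2* in ND replicates 1 and 2 and above it in the other 4 libraries.

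The top of the order did change between libraries. Per kb, *Mmp12* stood at 0.436 and 0.539 times *Timp2* in ND replicates 1 and 2 and at 1.25 times in ND replicate 3. In HFD replicates 1 to 3 it stood at 1.32, 2.27 and 2.58 times *Timp2*, and in HFD replicate 2 it passed *Adam8* as the highest member. *Mmp12* made up 63.9% to 76.1% of the summed per-kb level of the 6 metalloproteinases in ND and 74.2% to 81.7% in HFD. Without it the sum of the other 5 was 567 to 788 in ND and 1026 to 1344 in HFD. That sum holds *Mmp8*, *Mmp9*, *Mmp13* and *Mmp19*, which did not overlap singly, so its lack of overlap is no separate result. Ratios and shares within a library do not depend on the scaling between libraries, while the sum does. As log2 ratios to *Timp2*, the values of *Mmp8*, *Mmp9*, *Mmp12*, *Mmp13* and *Mmp19* did not overlap between the diets, with HFD means higher by 0.76 (*Mmp19*) to 1.57 (*Mmp12*). *Timp2* itself differed little between the diets (-0.032), so these ratios largely repeat the differences of the single genes. For *Mmp13* the gap was the narrowest, from -4.00 in ND replicate 3 to -3.97 in HFD replicate 1. For the pair known to act together, *Mmp14* against *Timp2*, the log2 ratio had a mean of -7.17 ± 0.56 for ND and of -6.31 ± 0.50 for HFD (SD, n = 3 libraries per diet), and the values overlapped.

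The members differed in how they varied over the libraries. Profiles were compared as the root-mean-square difference of log2(value + 1) centred on each gene's mean, over 6 libraries, among genes with a mean of at least 100. *Mmp13* and *Mmp19* were the closest pair at 0.10, and *Mmp13* was also the nearest member to *Mmp8* at 0.19. Over all such genes the 5 nearest to *Mmp8* were *Rras2* (0.13), *Gm47123* (0.14), *H2-Aa* (0.16), *Cpe* (0.16) and *Mmp13*. *Gm47123* is annotated as an antisense transcript, so its reads cannot be told apart from those of its partner where counting ignored strand. *Mmp12* and *Mmp9* were closest to each other (0.35) among the members.

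Other genes of the pathway were read from lists that do not contain the members. Of 18 such genes, *Timp4* and the remaining metalloproteinases, the table lists 1, *Mmp27*, with normalized reads of 287, 331 and 294 in ND and 390, 400 and 314 in HFD. *Mmp27* is the next gene after *Mmp8* on the chromosome. The diets overlapped for *Mmp27*, and its log2 difference was 0.27 (SE 0.11), against 0.90 for *Mmp8*. Because *Mmp8* was picked for its difference in these same libraries, a smaller value for its neighbour is no separate result. Whether position on the chromosome matters was not tested. Of 20 other ADAM and ADAMTS genes 8 were listed and 0 passed, with a median log2 difference of 0.057. These ran from *Adam22* (-0.42), a non-catalytic member, to *Adam9* (0.12) among genes with a mean of at least 100. *Adam9* was the 1 of the 8 without overlap, higher in each HFD library. Over all genes 7.44% lay higher in this way and 7.07% lower. *Adam10* and *Adam17*, the broad surface sheddases, had differences of 0.096 (0.057 to 0.13 without 1 library) and 0.063 (0.032 to 0.084).

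Plasmin and the furin-type convertases cut metalloproteinase precursors into active enzymes. Of 12 genes of this group 5 were listed and 0 passed, with a median log2 difference of -0.078. *Plau*, the urokinase that makes plasmin, had the highest difference (0.27; 0.090 when ND replicate 2 was left out, 0.54 when ND replicate 3 was), and *Pcsk7*, a convertase, the lowest (-0.15; -0.10 when HFD replicate 3 was left out). *Pcsk7* was the 1 of the 5 without overlap, lower in each HFD library, as 7.07% of all genes were. Of 16 genes for surface partners and other regulators 9 were listed and 0 passed (median 0.070). These ran from *Itgb3*, an integrin subunit (-0.25), to *Lcn2*, the lipocalin that binds MMP9 (0.40, from 0.17 without HFD replicate 2 to 0.77 without ND replicate 2). Of the 9, 3 did not overlap, here named after their values were seen: *Cd151*, a tetraspanin (0.30), and *Lgals3*, the galectin of macrophages (0.27), higher in each HFD library, and *Itgb3*, lower. Of all genes 7.44% had every HFD library above every ND library, 7.07% had every one below, and 0% passed. Each of these 4 lists is set beside these shares and a median of -0.0034 over all genes. The widest difference in them, chosen after its value was seen, was that of *Adam33*, an ADAM protease at a low level, at -0.77 (SE 0.36; -1.14 without ND replicate 3 and -0.50 without ND replicate 1) with overlapping values. The highest was the 0.40 of *Lcn2*. No comparison with the members is drawn from these lists, since the set was chosen on the same contrast.

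**Figure D4:**
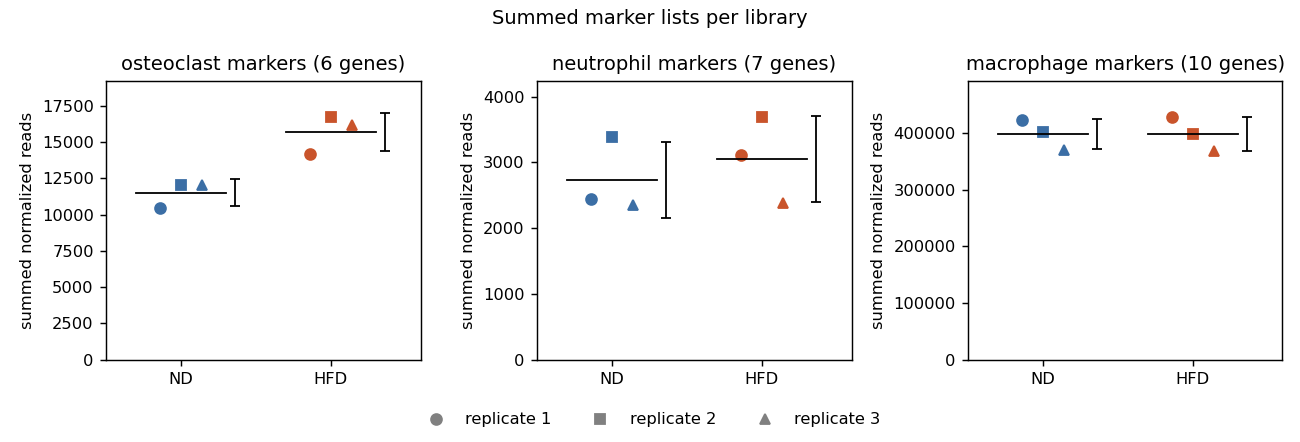
Summed normalized reads (linear axis from 0) of 3 marker lists in each library, ND in blue and HFD in orange, with marker shapes for the replicate number, a line at the mean and a bar of 1 SD (n = 3 libraries). The osteoclast sum is higher in each HFD library, while the neutrophil and macrophage sums overlap.

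Markers of other cell types were read beside the members, since *Mmp8* is a neutrophil granule gene and *Mmp9* and *Mmp14* are made by osteoclasts, the bone-resorbing relatives of macrophages. Of 14 neutrophil markers 7 were listed, and *Mpo*, *Elane*, *Prtn3*, *Ctsg*, *Camp*, *Ly6g* and *Cxcr2* were not. The listed markers summed to 2352 to 3393 in ND and 2379 to 3684 in HFD, and each of the 7 had a higher mean in HFD, by 1.03 to 1.38 times, with overlapping values. By library, replicates 1 to 3, the sums were 2441, 3393 and 2352 for ND and 3105, 3684 and 2379 for HFD. HFD replicate 2 was highest both for this sum and for *Mmp8*, and HFD replicate 3 had *Mmp8* above every ND library at a sum within the ND range. The part of neutrophils in the difference of *Mmp8* was not tested.

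Of 8 osteoclast markers 6 were listed, and *Calcr* and *Oscar* were not. The listed markers summed to 10465 to 12073 in ND and 14205 to 16710 in HFD, with no overlap, and 5 of the 6 had higher means in HFD. Most of the sum was *Atp6v0d2*, a proton pump subunit (7578 to 9128 in ND and 10912 to 12969 in HFD, with no overlap). Without it the sums overlapped, at 2886 to 3525 in ND and 3294 to 3741 in HFD, and the most abundant of the rest was *Nfatc1*, a transcription factor of osteoclast formation and the marker with a lower mean in HFD (1976 against 1774). *Ocstamp*, a fusion gene at low level, had the highest ratio of means (HFD to ND, 2.20), and *Ctsk*, a collagen-cutting cathepsin, had 1.29, both with overlapping values. *Dcstamp*, a receptor needed for fusion of osteoclasts and giant cells, was low in ND replicates 1 and 2 (454 and 538) and high in ND replicate 3 (1310), which lay above HFD replicates 1 and 2 (1149 and 1297) and below HFD replicate 3 (1500). *Acp5*, a defining enzyme of osteoclasts, was low and overlapped (38.7 to 57.9 in ND and 42.7 to 69.5 in HFD). The part of these cells in the differences of *Mmp9*, *Mmp12* and *Mmp14* was not tested.

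Stromal cells can also make *Mmp13* and *Mmp14*. Of 12 stromal markers 5 were listed, summing to 247 to 728 in ND and 107 to 508 in HFD. The means of 4 collagen genes were lower in HFD, and that of *Acta2*, a smooth muscle actin, was higher (44.0 against 51.9). Within each diet replicate 2 had the highest stromal sum and the highest *Mmp14*. The part of stromal cells in the differences of *Mmp13* and *Mmp14* was not tested. Of 7 endothelial markers *Kdr* alone was listed, at 74.4 to 172. None of 22 dendritic, lymphoid, mast or erythroid markers was listed.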

How the data were processed

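RNA was measured by stranded total RNA sequencing after ribosomal RNA removal, from 100 ng of RNA with single reads of 75 bases, per the labels' protocols. STAR, Partek and the build mm10 are named in the submitters' processing notes; versions, annotation and filters are not given in the sources used here. The authors deposited a signal, taken from its values to be estimated reads per gene divided by a size factor per library. NC in a column name was read as the normal diet and the number as the replicate.

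In each library 56.7% to 57.7% of values from 5 to 300 were whole multiples of 1 step within 0.02 read, which gave the value of 1 read and so the depth. Since the other values were fractions, no count test was run, and the planned test for normalized values was used. Counting errors assume independent reads; without molecular identifiers they cover counting only.

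Values were put on the scale log2(value + 1), and limma 3.58.1 (R 4.3.3) tested HFD against ND for every gene, 3 libraries per diet (mean-variance trend, two-sided, Benjamini-Hochberg over 13232 genes, threshold 0.05), without a filter. The procedure was tested on simulated data. Fold changes on this scale understate those of low genes. Lengths came from GENCODE M21, which matched 12964 symbols, and promoters from RefSeq.

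The members and all lists were chosen with earlier results of these data known. Named were the members, the genes with the highest and the lowest difference in each pathway list (mean at least 100) and the 5 profiles nearest to *Mmp8*; *Adam10*, *Adam17* and single marker genes were added after their values were seen. Ratios to *Timp1* and *Timp3* were planned and not run. Ratios of other members to *Timp2* were added later. Alternatives were the pseudocount, filters on low values, scaling, trend, array weights, a replicate block and leaving out libraries.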

Additional observations from a re-analysis of the deposited data

How the results depend on the processing

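With all 6 libraries 0 genes and 0 members passed (limma, adjusted p under 0.05; 1401 genes and 7 members at an unadjusted p). The counts stayed at 0 with pseudocounts of 0.1 and 10, a minimum of 10 in every library, a minimum mean of 100, scaling to the column total, quantile normalization and limma without the trend. Array weights gave 1133 genes and 7 members, and leaving out 1 library gave 0 to 233 genes and 0 to 6 members, the highest without ND replicate 3. Without ND replicate 3 and HFD replicate 1 together 590 genes and 6 members passed. Why these counts were higher was not tested. The replicate block gave 31 genes and 2 members, *Mmp8* and *Mmp12*. The check of this pairing gave correlations of 0.089, -0.11 and 0.027 between the deviations of libraries with the same number. Correlations over many genes can miss a shared step that moves only some of them, so they do not settle the pairing. Whether libraries with the same number were handled together is not given in the sources used here.

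Over 19 named genes and their alternatives, 263 of 303 values had the same sign and call, 38 newly passed and 2 changed sign. Both of the latter were for *Timp2*, 0.0042 without ND replicate 1 and 0.026 without HFD replicate 3; without 1 library its values ran from -0.098 (without ND replicate 3) to 0.026, and it was -0.13 without ND replicate 3 and HFD replicate 1 together. *Mmp14* had no value at a minimum mean of 100. The difference in the *Mmp14* to *Timp2* log2 ratio, 0.85, ran from 0.58 to 1.14 without 1 library. The order of levels per kb held for 8 of 8 members with the longest transcript as the length. The depth limits *Mmp14* and *Mmp9* most.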
